A study of Mus musculus with 12 samples.

Results

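The set described here holds 35 mouse genes of DNA damage signalling and repair, taken by symbol from the 17419 genes of the deposited table. No measured value entered the rule, but the members were chosen with earlier results of these data known. All 35 were found, from the damage kinases Atm and Atr to the end-joining ligase Lig4. They were measured in NIH-3T3 cells, a mouse fibroblast line labelled as wild type, after 15, 30, 60, 90 or 120 min with 800 µM 4-thiouridine (4sU), and in cells without 4sU (no4sU). Each of the 6 groups had 2 libraries, A and B, which made 12 libraries. No DNA-damaging agent is named in the labels, so the values describe these genes in growing cells to which only 4sU was added. The labels do not say whether A and B came from separate cultures, and p-values then measure only the spread between these libraries, which may be technical. The libraries are bulk RNA, so fewer cells with a transcript and less transcript per cell cannot be told apart.

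DNA breaks are detected by the Mre11a, Rad50 and Nbn complex and by the Ku heterodimer, and the kinases Atm and Atr pass the signal on to the checkpoint kinases Chek2 and Chek1. A double-strand break is then either joined directly, which needs Ku, Prkdc and Lig4, or cut back to single strands and repaired by recombination, which needs Brca1, Bard1, Palb2, Brca2, Xrcc2 and Xrcc3. Many of these genes are transcribed mostly in dividing cells, and E2F factors are among their known activators. 4sU is a uridine analogue that is built into RNA made during labelling and is read as C after iodoacetamide treatment. From these conversions the authors estimated, for each gene, which fraction of its RNA is new, the new-to-total ratio (NTR).

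Promoter sequences of the members were searched for 3 motifs, E2F, CHR and the CCAAT box, since E2F sites are known in several of these genes. RefSeq promoters (GRCm38.p6) were matched for 26 of the 35 members, and the 250 bases before each start were searched on both strands. The E2F motif was taken as TTT, then 2 bases that are each C or G, then CGC, which gives 4 forms (TTTCCCGC, TTTCGCGC, TTTGCCGC and TTTGGCGC). It was found in 5 of the 26 members (19.2%), namely Bard1, Brca2, Chek2, Topbp1 and Xrcc6. The share was 1.86% over 32851 promoter entries of all genes, and 4.41% over the 7237 genes of the table that have an entry and at least 100 reads on average. The CHR motif TTTGAA was found in 1 member (3.85%, against 16% of all entries and 12.3% of those 7237 genes) and the CCAAT box in 13 members (50%, against 33.8% and 41%). A match is a description of letters and not of binding, and no match says only that these letters are not in this window. The windows below show the match in capitals with 30 bases on each side, for 4 of the 5 members, on the strand of the gene. Windows that overlap an annotated exon by more than 30 bases were not shown, which left out Xrcc6. The Bard1 and Topbp1 windows overlap an annotated exon by 3 and 21 bases. Of the 4 genes shown, Bard1 and Brca2 fell with labelling, and Chek2 and Topbp1 did not pass the test. Xrcc6, the fifth, rose between 15 and 120 min.
Bard1: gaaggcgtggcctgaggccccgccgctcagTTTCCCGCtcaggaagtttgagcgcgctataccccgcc
Brca2: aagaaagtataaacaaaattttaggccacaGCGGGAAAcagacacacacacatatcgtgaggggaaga
Chek2: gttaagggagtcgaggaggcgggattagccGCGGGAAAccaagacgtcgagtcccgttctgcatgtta
Topbp1: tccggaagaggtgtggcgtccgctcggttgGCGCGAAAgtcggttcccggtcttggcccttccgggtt

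The Bard1 window lies at chr1:71103144-71103211 on the minus strand, and its match spans 209 to 202 bases before the RefSeq start. The Brca2 window lies at chr5:150522423-150522490 on the plus strand, with the match 168 to 161 bases before the start. For Chek2 the window is chr5:110839801-110839868 (plus strand), with the match at 152 to 145 bases. For Topbp1 it is chr9:103305168-103305235 (plus strand), with the match at 129 to 122 bases. The match of Xrcc6 lies 46 to 39 bases before its start and is not shown. Bard1 carries the motif in the TTTCCCGC form on the gene's own strand, whereas the other 3 printed matches are on the opposite strand and read as the reverse complement.

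Library totals were between 9917026 and 13739380 reads. The no4sU libraries differed from each other more than those of any labelled group: the SD of log2 B over A across the 32 members with at least 100 reads on average was 0.221 in no4sU and 0.097 to 0.141 in the labelled groups. No4sU B was above no4sU A in 26 of the 35 members, by a median log2 value of 0.13 and by up to 0.72 in Atm. Across these 32 members the log2 ratio of B over A correlated with gene length at a Spearman rho of 0.589 (0.576 over 9065 genes). Results set against no4sU are therefore also given without each no4sU library. All 10 fibroblast markers examined were detected, from a median of 16.0 RPKM (Col3a1) to 3890 RPKM (S100a4). Cdh1, Krt8, Pecam1, Kdr, Ptprc, Lyz2 and Des, which mark epithelial, endothelial, blood or muscle cells, had medians between 0 and 0.0359 RPKM. Of the other markers, Cdh5 was at 0.320, Nes at 2.73, Tubb3 at 3.55 and Cd68 at 4.42 RPKM.

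Per length, the members lay below the middle of expressed genes. Their median over all libraries was 6.36 RPKM, compared with 14 RPKM over the 9065 genes that average at least 100 reads. Topbp1, a scaffold that activates Atr, was highest at 48.4 RPKM, followed by the nick sensor Parp1 at 44.1 and the mismatch sensor Msh6 at 42.9. The kinase Prkdc was lowest of the 32 at 1.46 RPKM, and in read counts it was held up by its length of 12647 bases. Palb2, Rad51c and Xrcc3 had mean counts of 81.2, 79.9 and 59.7, and are left out of medians over members. Exons of 16 of the 35 members share bases with another annotated gene, among them Fanci with Polg (921 bases), Fanca with Zfp276 (920 bases), Rad54l with Lrrc41 (1184 bases) and Xrcc6 with Desi1 (344 bases), all on opposite strands. Atrip shares 1147 exon bases with Trex1 on the same strand. The sources used here do not say whether counting used strand. Reads of such pairs then cannot be told apart, and values of those members are uncertain.

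The share of new RNA at 120 min spanned nearly the whole possible range within the set. The order at 120 min ran from Xrcc5 (mean NTR 0.107), Fanci (0.131), Chek2 (0.148) and Fanca (0.150) at the low end to Xrcc2 (0.795), Exo1 (0.872), Bard1 (0.945) and Lig4 (1.00) at the high end. The median over the 32 members was 0.527% ± 0.322 (SD, n = 2) at 15 min, 4.72% ± 0.93 after 30 min, 15.2% ± 0.544 after 60 min, 24.5% ± 1.52 after 90 min and 37.7% ± 2.03 after 120 min. At 120 min the median over all 9065 genes was 35.4% ± 0.523, and 18 of the 32 members were above it, so that as a group the members lay close to the middle of all genes. The mean NTR was higher at each longer duration in 30 of the 32 members. Within the order, the libraries of neighbouring members did not overlap in 11 of 31 neighbouring pairs, and the other neighbours were not separated by their libraries. The authors' 90% intervals of A and B overlapped in 30 of the 32 members. Neither this count nor that of members with a rising NTR was set against all genes, so neither sets the members apart.

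**Figure D1:**
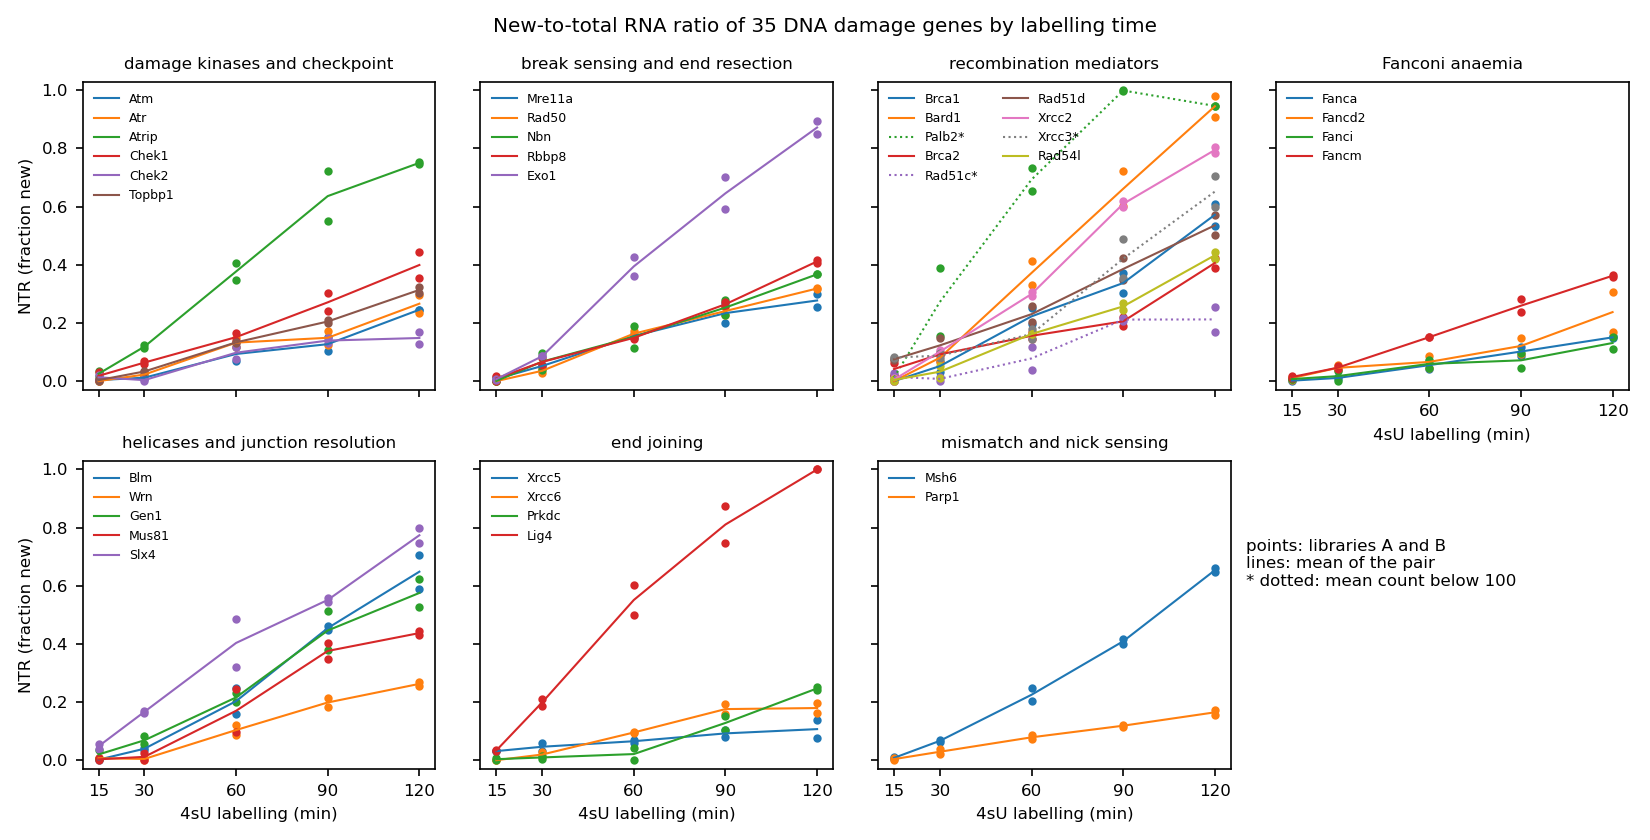
New-to-total RNA ratio (fraction, y axis) against minutes of 4sU (x axis) for the 35 genes in 7 panels by role, with a point for each library, lines through the mean of A and B, and dotted lines for the 3 genes with a mean count below 100. The highest gene at 120 min is Atrip (0.750), Exo1 (0.872), Palb2 (0.946), Slx4 (0.774), Lig4 (1.00) or Msh6 (0.654) in 6 of the panels, whereas the 4 Fanconi anaemia genes end between 0.131 and 0.362.

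By role, the Fanconi anaemia genes had the lowest median NTR at 120 min, 0.194 over 4 genes. The 4 end-joining genes followed with 0.214, the 6 kinases and checkpoint genes with 0.290, and the 5 genes of break sensing and end resection with 0.367. The median was 0.409 for the pair Msh6 and Parp1, 0.554 for 6 recombination mediators and 0.576 for the 5 helicase and junction resolution genes. Roles with few genes and wide ranges cannot be ranked from these values. End joining held both extremes of the set, Xrcc5 and Lig4, and the kinase group ranged from 0.148 in Chek2 to 0.750 in Atrip, the partner protein of Atr.

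At the low end, Xrcc5, a subunit of Ku, had NTR values in A and B of 0.0329 and 0.0308 after 15 min, 0.0334 and 0.0601 after 30 min, 0.0717 and 0.0599 after 60 min, 0.1038 and 0.0816 after 90 min, and 0.0756 and 0.1392 after 120 min. The 120 min libraries differed from each other by more than the step from 60 to 90 min. Their 90% intervals, 0.055 to 0.1044 and 0.1123 to 0.1724, did not overlap. Fanci, part of the clamp that marks crosslinked DNA, was at 0.0067 and 0.0073 after 15 min, 0.0341 and 0 after 30 min, 0.0734 and 0.0451 after 60 min, 0.0452 and 0.0976 after 90 min, and 0.1105 and 0.1516 after 120 min. In Fanci the libraries overlapped between 15 and 30 min and between 60 and 90 min, and those at 120 min lay above all others.

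Chek2, the checkpoint kinase downstream of Atm, was at 0.0215 and 0.0048 after 15 min, 0 and 0.0068 after 30 min, 0.077 and 0.1183 after 60 min, 0.1489 and 0.1298 after 90 min, and 0.1264 and 0.17 after 120 min. Its 90 and 120 min libraries overlapped, on counts of only 135 and 160 reads at 120 min. Fanca, part of the Fanconi anaemia core complex, was at 0.003 and 0 after 15 min, 0.0155 and 0.0062 after 30 min, 0.0684 and 0.0412 after 60 min, 0.1166 and 0.0867 after 90 min, and 0.1536 and 0.1472 after 120 min. In Fanca both libraries of each duration lay above those of the one before it.

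At the high end, Lig4, the ligase that seals joined ends, was at 0.0311 and 0.0371 after 15 min, 0.1875 and 0.211 after 30 min, 0.4993 and 0.6033 after 60 min, 0.8739 and 0.7477 after 90 min, and 1.00 in both libraries at 120 min. The deposited maximum at 120 min lies above the authors' 0.95 quantile of 0.998 in A and 0.9936 in B, with 0.05 quantiles of 0.9191 and 0.859, so the value is an estimate at the edge of its range. Bard1, the partner of Brca1, was at 0.0001 and 0 after 15 min, 0.0661 and 0.0945 after 30 min, 0.3307 and 0.413 after 60 min, 0.722 and 0.6004 after 90 min, and 0.9092 and 0.9803 after 120 min. Both genes separated every pair of successive durations.

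Exo1, the exonuclease that resects broken ends, was at 0.0047 and 0.0088 after 15 min, 0.0863 and 0.0847 after 30 min, 0.3604 and 0.4282 after 60 min, 0.7012 and 0.5901 after 90 min, and 0.8935 and 0.8502 after 120 min. Xrcc2, a recombination mediator, was at 0.0106 and 0 after 15 min, 0.0952 and 0.1074 after 30 min, 0.3064 and 0.2924 after 60 min, 0.6199 and 0.5988 after 90 min, and 0.7827 and 0.8065 after 120 min. In both genes the libraries of successive durations did not overlap. Palb2, which links Brca1 to Brca2, was listed at 0.9473 and 0.9449 after 120 min and higher still, at 0.998 and 1.00, at 90 min, on 69 and 85 reads at 120 min.

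If the RNA level is constant, the NTR gives a half-life of ln 2 times the labelling time over -ln(1-NTR). Over the members with an NTR between 0.01 and 0.99, the median at 120 min was 185 min ± 3.73 (SD, n = 2), compared with 198 min ± 5.41 over all genes. The longest value was that of Xrcc5, 807 min ± 356, and its 2 libraries gave 1060 and 555 min. Among the 32 members with at least 100 reads on average the shortest values were 27.9 min ± 9.54 for Bard1, 40.5 min ± 4.72 for Exo1, 52.6 min ± 2.72 for Xrcc2, 56.0 min ± 6.22 for Slx4 and 59.9 min ± 0.746 for Atrip, and Lig4 had no value because its NTR was above 0.99. Palb2, below that count, was at 28.5 min ± 0.307. Counts of Bard1 and Exo1 fell from 15 to 120 min (log2 fold change -0.52 and -0.35) and those of Atrip by slope, so a constant level was not met for them. Xrcc2 and Slx4 passed in no contrast with all libraries. The value depended on the duration it was taken from. It was longer at 60 than at 120 min in 26 of 30 members, as it was in 85.3% of 8614 genes, and the exceptions were Xrcc5, Chek2, Mre11a and Xrcc6. In Bard1 it was 90.8 min ± 18 after 60 min, and in Blm it was 193 min ± 67.9 after 60 min and 80.5 min ± 18.2 after 120 min.

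Gene span and base composition were not used to choose the members. The Spearman rho of NTR at 120 min with the genomic span was -0.488 over the 32 members and 0.088 over 9056 genes. The rho with the share of U in the transcript was 0.033 over members and 0.051 over 8957 genes. These are correlations across genes that share libraries, given as descriptions, and their differences from all genes were not tested. The members' median span was 49.0 kb, from 6.06 kb in Mus81 to 204 kb in Prkdc. Of the members with the highest NTR, Lig4, Exo1, Xrcc2, Slx4 and Atrip spanned 8.6, 32.9, 16.0, 24.7 and 16.2 kb, whereas Bard1 spanned 75.6 kb, more than the median.

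The series asks, by its title, how labelling duration biases quantification, and the counts of the members were therefore compared between durations. By the quasi-likelihood test of edgeR on 11564 genes, no member passed an adjusted p of 0.05 at 15, 30 or 60 min against no4sU. Of the members, 1, 0 and 3 had an unadjusted p under 0.05 at these durations by edgeR, as did 618, 670 and 895 of the 11564 genes. By DESeq2 0, 0 and 0 members did (246, 291 and 418 of all genes), and it called 0 members. The background share of genes called was 0%, 0% and 0.0173% of all genes. At 90 min Gen1 alone passed, and it fell (background 1.39%, with 0.943% lower and 0.45% higher). At 120 min against no4sU, 6 of the 35 members fell and none rose (17.1%, background 14.2% in either direction, 8.78% lower and 5.43% higher), namely Gen1, Bard1, Blm, Lig4, Brca2 and Exo1. In that contrast DESeq2 called 4 of the 31 members to which it gave an adjusted p lower and 0 higher (7.16% and 5.33% of all such genes). By edgeR 10 of the 35 members had an unadjusted p under 0.05 in either direction, as did 3524 of the 11564 genes. The members' median log2 fold change was -0.01, compared with 0.01 over all genes.

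In the comparison of 120 with 15 min, 8 members fell and 1 rose (25.7%, background 19.3% in either direction, 11.3% lower and 7.93% higher). The 8 were the same 6 genes with Brca1 and Msh6, and the 1 that rose was Xrcc6. The median log2 fold change was -0.06 over the members and 0.01 over all genes. It was below 0 in 23 of the 35 members and in 5672 of the 11564 genes. The slope of log2 level per hour over the 10 labelled libraries passed in 12 members (34.3%, background 37.8%), of which 10 fell and 2, Parp1 and Fanca, rose. Falls were 17.1% of the members against no4sU and 22.9% against 15 min, above the 8.78% and 11.3% of all genes, and by slope they were 28.6% (background 19.5%) and rises 5.71% (background 18.3%). These differences from all genes were not tested, so the calls are read gene by gene. The 2 contrasts at 120 min share the 120 min libraries.

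Single libraries decided many of these calls. Without no4sU replicate B, 4, 4, 3, 8 and 10 members passed at 15, 30, 60, 90 and 120 min against no4sU, and the shares of all genes called in the same fit were 11.4%, 11.7%, 10.4%, 10.4% and 16.2%. The 4 at 15 min (Atm, Fancm, Mre11a and Topbp1) were all higher. Of the 10 at 120 min, 5 were lower and 5 higher (Atm, Fancm, Parp1, Prkdc and Topbp1), and Lig4 no longer passed. Without no4sU replicate A, 9 members passed at 120 min (background 30.2%) and 4 at 90 min (background 12.3%), all lower. Without 120 min replicate A or B, 3 passed at 120 min against no4sU (Gen1, Bard1 and Blm, background 3.87% and 3.99%), as they did when only these 2 groups were fitted (background 1.5%). For 120 against 15 min, 4 members passed without 15 min replicate A (background 5.62%), 2 without 15 min replicate B (8.86%), 4 without 120 min replicate A (8.7%) and 2 without 120 min replicate B (6.03%). The share of all genes called thus moved with the left-out library as well. Gen1 and Blm were among the calls of every one of these fits at 120 min. For 120 against 15 min DESeq2 called 4 of the 32 members to which it gave an adjusted p, Gen1, Blm, Bard1 and Exo1, and 15.7% of all such genes.

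**Figure D2:**
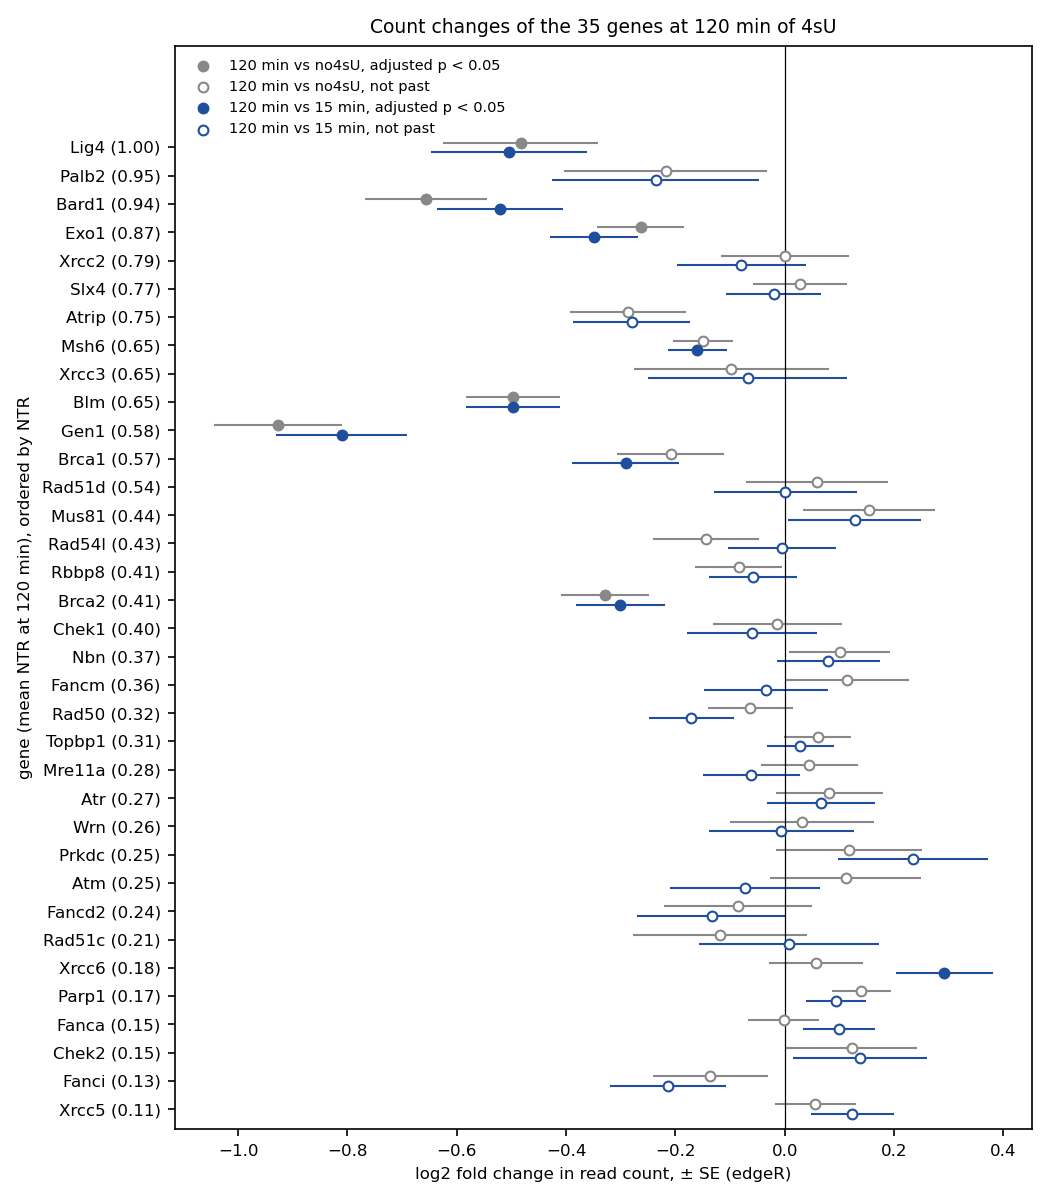
Log2 fold change in read count with its SE (x axis) for the 35 genes, ordered by mean NTR at 120 min (y axis, NTR in brackets), for 120 min against no4sU (grey) and against 15 min (blue), with filled symbols past an edgeR adjusted p of 0.05. Filled symbols to the left of 0 lie in the upper part of the order, from Brca2 (0.41) to Lig4 (1.00), and Xrcc6 (0.18) is the only filled symbol to the right of 0.

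The member with the largest fall was Gen1, of the helicases and junction resolution genes. Gen1 (ENSMUSG00000051235, chromosome 12, 11238920 to 11265801, minus strand, all positions in GENCODE M21 on GRCm38), a nuclease that cuts Holliday junctions, was at 19.8 and 22.9 CPM without 4sU (A and B), 20.5 and 19.2 after 15 min, 21.6 and 22.2 after 30 min, 20.0 and 19.3 after 60 min, 14.2 and 14.7 after 90 min, and 10.1 and 12.3 after 120 min. The 8 libraries up to 60 min lay at or above 19.2 CPM, and the 4 libraries at 90 and 120 min lay below all of them. The log2 fold change against no4sU was -0.58 ± 0.12 (SE, edgeR adjusted p = 0.0161) at 90 min and -0.93 ± 0.12 after 120 min (adjusted p = 7.26e-05), and 120 against 15 min gave -0.81 ± 0.12 (adjusted p = 0.000206). At 90 min the call was lost without either 90 min library and with only the 2 groups fitted, and DESeq2 gave it no adjusted p. At 120 min it held in all 18 alternatives run, with values from -1.09 to -0.80 against no4sU.

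Blm (ENSMUSG00000030528, chromosome 7, 80454733 to 80535119, minus strand), a helicase that dissolves recombination intermediates, was at 37.8 and 41.7 CPM without 4sU, 39.6 and 40.2 after 15 min, 38.4 and 42.5 after 30 min, 40.9 and 40.5 after 60 min, 34.3 and 35.5 after 90 min, and 29.2 and 27.5 after 120 min. The 120 min libraries were the lowest pair and the 90 min libraries the next lowest, with no overlap with the earlier ones. It changed at 120 min by a log2 value of -0.50 ± 0.09 (SE), both against no4sU (edgeR adjusted p = 0.000915) and against 15 min (adjusted p = 0.00078), and it passed in all 18 alternatives of each. Wrn, Mus81 and Slx4 of the same role did not pass, at -0.01, 0.13 and -0.02 against 15 min.

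Among the recombination mediators, Bard1 (ENSMUSG00000026196, chromosome 1, 71027498 to 71103146, minus strand) was at 22.2 and 23.5 CPM without 4sU, 19.6 and 22.1 after 15 min, 18.8 and 23.0 after 30 min, 19.3 and 19.8 after 60 min, 17.4 and 17.3 after 90 min, and 14.9 and 14.3 after 120 min. The libraries at 90 and 120 min lay below all others. On the log2 scale the change was -0.66 ± 0.11 (SE, edgeR adjusted p = 0.000858) against no4sU and -0.52 ± 0.11 (adjusted p = 0.00395) against 15 min. The second was not past the threshold without 15 min replicate B (adjusted p = 0.0606) or without 120 min replicate B (adjusted p = 0.0574).

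Brca1 (ENSMUSG00000017146, chromosome 11, 101488764 to 101551955, minus strand), with which Bard1 forms a ubiquitin ligase, was at 46.6 and 58.6 CPM without 4sU, 53.4 and 58.8 after 15 min, 56.1 and 61.2 after 30 min, 56.9 and 52.2 after 60 min, 50.1 and 52.0 after 90 min, and 49.1 and 42.9 after 120 min. Its 120 min libraries lay below both 15 min libraries and overlapped with no4sU. The log2 fold change was -0.29 ± 0.10 (SE, edgeR adjusted p = 0.0432) against 15 min, and -0.21 ± 0.10 (adjusted p = 0.156) against no4sU. The first did not pass in 11 of 18 alternatives, among them DESeq2 and every fit without a labelled library, with adjusted p-values up to 0.341 (without 120 min replicate B). Over the labelled libraries the slope was -0.18 ± 0.04 per hour (edgeR adjusted p = 0.000104), past the threshold in all 15 alternatives.

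Brca2 (ENSMUSG00000041147, chromosome 5, 150522630 to 150570329, plus strand), which acts in strand exchange during recombination, was at 35 and 37.1 CPM without 4sU, 34.9 and 35.9 after 15 min, 35.3 and 36.2 after 30 min, 36.1 and 36.1 after 60 min, 35 and 36.5 after 90 min, and 28.8 and 28.7 after 120 min. The 10 libraries up to 90 min lay between 34.9 and 37.1 CPM, and both 120 min libraries lay well below them. Fitted log2 fold changes were -0.33 ± 0.08 (SE, edgeR adjusted p = 0.010) against no4sU and -0.30 ± 0.08 (adjusted p = 0.0137) against 15 min. Without either 120 min library neither contrast passed (adjusted p from 0.0725 to 0.0923), nor did the contrast with 15 min without either 15 min library or with DESeq2. The contrast with no4sU was also lost with only the 2 groups fitted (edgeR adjusted p = 0.129). The log2 fold changes of the other mediators against 15 min lay between -0.24 in Palb2 and 0.01 in Rad51c, and none passed.

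**Figure D3:**
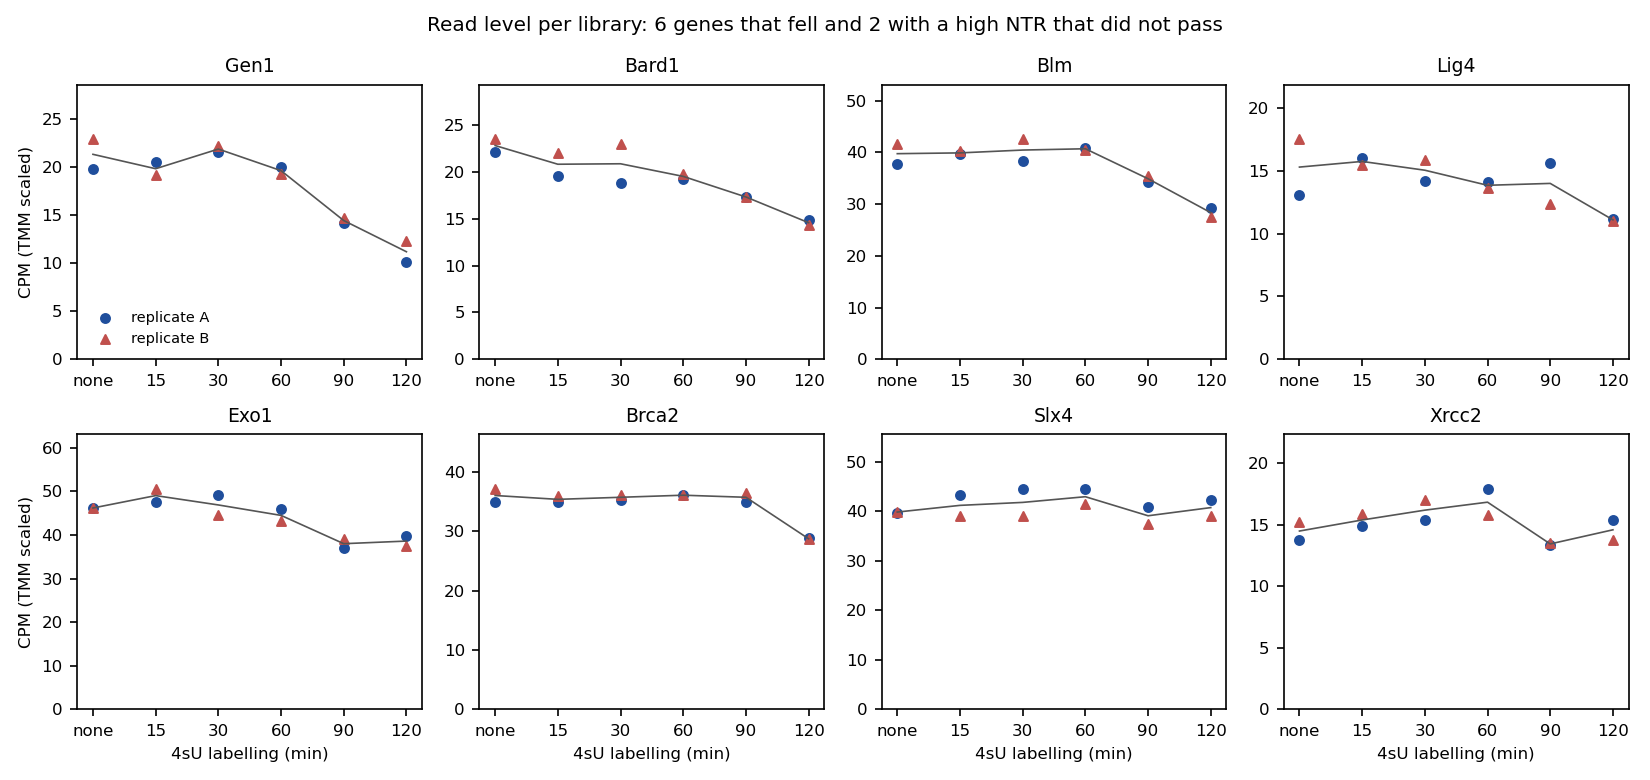
CPM with TMM scaling (y axis, from 0) in each library without 4sU and at 15 to 120 min (x axis) for 8 genes, with A as circles, B as triangles and a line through the mean of the pair. Gen1, Bard1, Blm, Lig4, Exo1 and Brca2 are lowest at 90 or 120 min, whereas Slx4 (39.1 to 42.3 CPM at 120 min) and Xrcc2 (13.8 to 15.4 CPM) stay within the range of their earlier libraries.

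Exo1 (ENSMUSG00000039748, chromosome 1, 175880581 to 175913489, plus strand) was at 46.2 CPM in both no4sU libraries, 47.6 and 50.5 after 15 min, 49.3 and 44.5 after 30 min, 45.9 and 43.1 after 60 min, 37.0 and 39.0 after 90 min, and 39.8 and 37.4 after 120 min. The 90 and 120 min libraries overlapped each other and lay below all others. Fitted log2 fold changes were -0.26 ± 0.08 (SE, edgeR adjusted p = 0.0324) against no4sU and -0.35 ± 0.08 (adjusted p = 0.00508) against 15 min. The first was lost without either 120 min library, with only the 2 groups fitted and with DESeq2, the second without 15 min replicate B or 120 min replicate B. The other 4 genes of break sensing and resection (Mre11a, Rad50, Nbn and Rbbp8) lay between -0.17 and 0.08 against 15 min and did not pass.

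In end joining, the members differed in direction. Lig4 (ENSMUSG00000049717, chromosome 8, 9969049 to 9977686, minus strand) was at 13.1 and 17.5 CPM without 4sU, 16.0 and 15.5 after 15 min, 14.2 and 15.9 after 30 min, 14.1 and 13.6 after 60 min, 15.6 and 12.4 after 90 min, and 11.2 and 11 after 120 min. Both 120 min libraries were below all 10 others. Its log2 fold change was -0.48 ± 0.14 (SE, edgeR adjusted p = 0.0281) against no4sU and -0.50 ± 0.14 (adjusted p = 0.0182) against 15 min, and the first was -0.245 (adjusted p = 0.332) without no4sU replicate B. Both were also lost without either 120 min library and with DESeq2, the first with only the 2 groups fitted and the second without either 15 min library.

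Xrcc6 (ENSMUSG00000022471, chromosome 15, 81987835 to 82040085, plus strand), the other Ku subunit, was at 34.8 and 33.8 CPM without 4sU, 28.3 and 29.9 after 15 min, 31.8 and 35.1 after 30 min, 31.9 and 31.3 after 60 min, 33.0 and 28.6 after 90 min, and 35.4 and 35.9 after 120 min. The 15 min libraries were lower than no4sU, and the 120 min libraries were the highest pair. The log2 fold change of 120 against 15 min was 0.29 ± 0.09 (SE, edgeR adjusted p = 0.0274), and it did not pass with library size alone (0.235, adjusted p = 0.068), with DESeq2 or without any of the 4 libraries compared. Against no4sU it was 0.06 ± 0.09 (adjusted p = 0.688). Xrcc5 and Prkdc were at 0.12 and 0.23 against 15 min and did not pass.

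Msh6 (ENSMUSG00000005370, chromosome 17, 87975062 to 87990892, plus strand) was at 180 and 190 CPM without 4sU, 183 and 190 after 15 min, 189 and 188 after 30 min, 179 and 187 after 60 min, 185 and 184 after 90 min, and 167 in both libraries at 120 min. The 120 min libraries lay below the other 10, by less than for the genes above. Its log2 fold change was -0.16 ± 0.05 (SE, edgeR adjusted p = 0.0453) against 15 min and -0.15 ± 0.05 (adjusted p = 0.0685) against no4sU. The first did not pass in 12 of 18 alternatives, among them DESeq2, no filter on low counts and every fit without a labelled library (adjusted p up to 0.247, without 15 min replicate B).

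Of the members that passed only by slope, Atrip fell by 0.15 ± 0.05 (SE) log2 units per hour (edgeR adjusted p = 0.0184) and Rad50 fell by 0.09 ± 0.03 per hour (adjusted p = 0.0301). Parp1 rose by 0.07 ± 0.02 per hour (adjusted p = 0.0125) and Fanca by 0.08 ± 0.03 per hour (adjusted p = 0.0434), and with library size alone neither passed (0.03, adjusted p = 0.248, and 0.04, adjusted p = 0.304). Fanca passed in 5 of 15 alternatives, Rad50 in 10 and Atrip in 12, and Atrip was lost with DESeq2 and without 15 min replicate B or 120 min replicate A (adjusted p up to 0.0842). The kinases Atm, Atr, Chek1 and Chek2 and the scaffold Topbp1 did not pass in any contrast with all libraries, with log2 fold changes of -0.07 to 0.14 against 15 min. An approximate 95% interval of the change, from the SE and a normal distribution, was -0.09 to 0.15 in Topbp1 and -0.34 to 0.20 in Atm. Such an interval is somewhat narrower than the test itself would give, and changes of the sizes within it are not excluded.

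Multiplying a library's CPM by the NTR, or by 1 minus the NTR, splits the level into a new and an unlabelled part. In Gen1 the unlabelled part was 19.4 ± 0.466 CPM (SD, n = 2) at 15 min, 15.4 ± 0.0114 after 60 min, 8 ± 1.59 after 90 min and 4.81 ± 1.42 after 120 min. Its new part was 4.26 ± 0.529 CPM at 60 min, 6.42 ± 1.23 after 90 min and 6.40 ± 0.11 after 120 min, and the last step was thus within the spread of the libraries. Slx4, a scaffold for nucleases with a higher NTR, had a new part of 17.5 ± 5.94, 21.5 ± 1.79 and 31.5 ± 3.28 CPM at these durations. Gen1 was not alone in its level last step, since the new part of Lig4 was 11.4 ± 3.12 CPM after 90 min and 11.1 ± 0.092 after 120 min. In Bard1 the unlabelled part was 20.9 ± 1.80 CPM at 15 min and 0.816 ± 0.756 CPM at 120 min, and the new part was 13.7 ± 0.316 CPM at 120 min. In Msh6 the new part was 109 ± 1.39 CPM at 120 min with an unlabelled part of 57.8 ± 1.97 CPM. In Xrcc5 the unlabelled part was 41.4 ± 2.10 CPM at 15 min and 41.6 ± 1.68 CPM at 120 min.

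**Figure D4:**
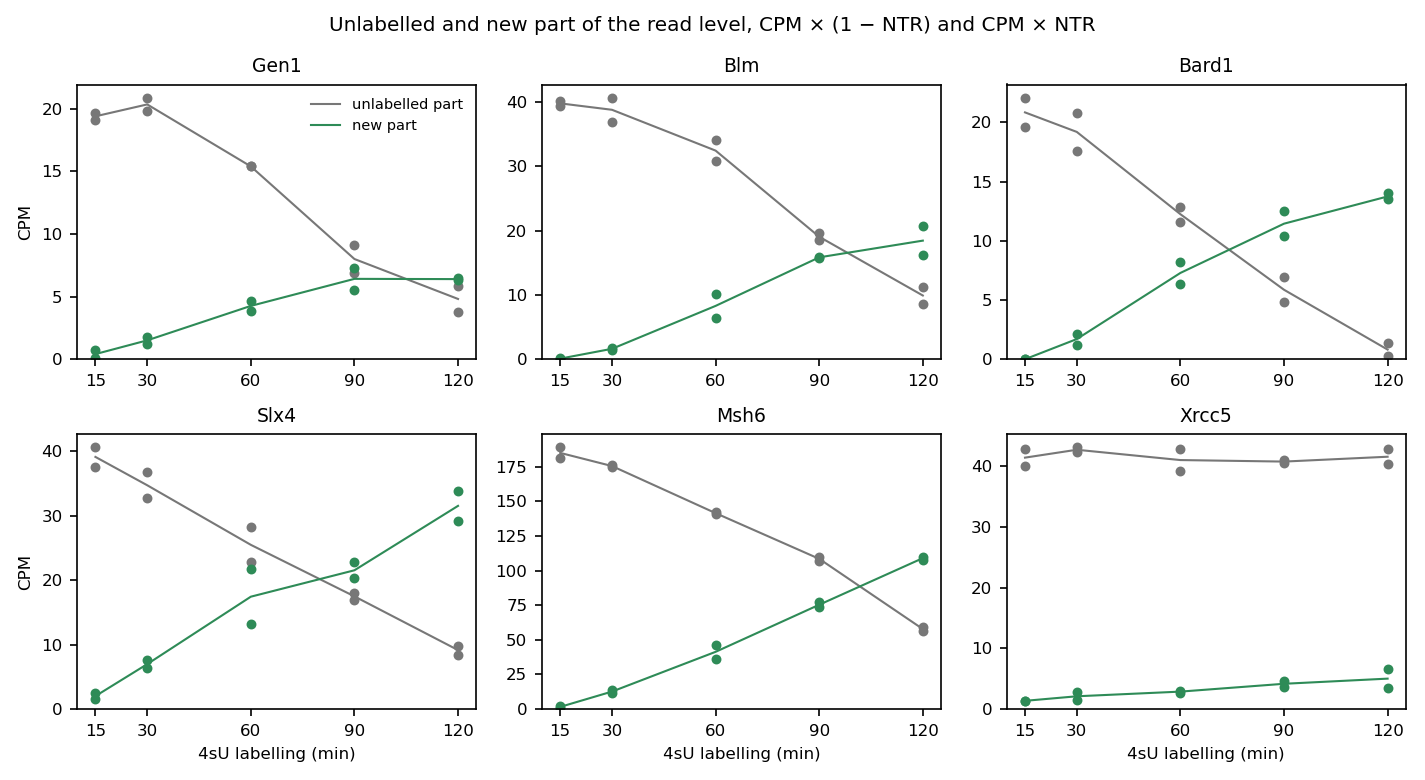
Unlabelled part (grey, CPM times 1 minus NTR) and new part (green, CPM times NTR) of the read level in CPM (y axes, from 0) against minutes of 4sU (x axis) for 6 genes, with a point for each library and lines through the mean of the pair. The new part of Gen1 is level between 90 (6.42) and 120 min (6.40), whereas that of Slx4 goes from 21.5 to 31.5 CPM, and the means of the unlabelled part of Xrcc5 stay between 40.8 and 42.7 CPM.

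Members with more new RNA tended to have lower fold changes. Over the 32 members the Spearman rho of NTR at 120 min with the log2 fold change of 120 against 15 min was -0.622 with edgeR's values, and -0.603 ± 0.02 (SD, n = 2) per library. It was -0.763 over the 9065 genes. Both measures come from the same 120 min libraries, and the points are genes and not replicates. Within 10 bins of genes by NTR, the median log2 fold change went from 0.21 in the lowest to -0.27 in the highest bin, and 21 of the 32 members lay below the median of their bin.

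Some members departed from genes of like NTR. Gen1, at an NTR of 0.576, was 0.66 log2 units below its bin's median of -0.15, and Blm, in the same bin, was 0.34 below it. Gen1, Blm, Brca2, Fancd2 and Fanci, 5 of 32 members (15.6%), lay below the 5th percentile of their bins, which holds 5% of the genes by construction. Fanci was at -0.21 ± 0.11 (SE, edgeR adjusted p = 0.167) in a bin with a median of 0.21, and neither it nor Fancd2 (-0.13, adjusted p = 0.523) passed the test. In the other direction, Slx4, at an NTR of 0.774, was at -0.02 ± 0.09 (adjusted p = 0.901), which is 0.21 above the median of its bin, and Mus81, the nuclease that Slx4 binds, was likewise 0.21 above. Departures from a bin were not tested.

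**Figure D5:**
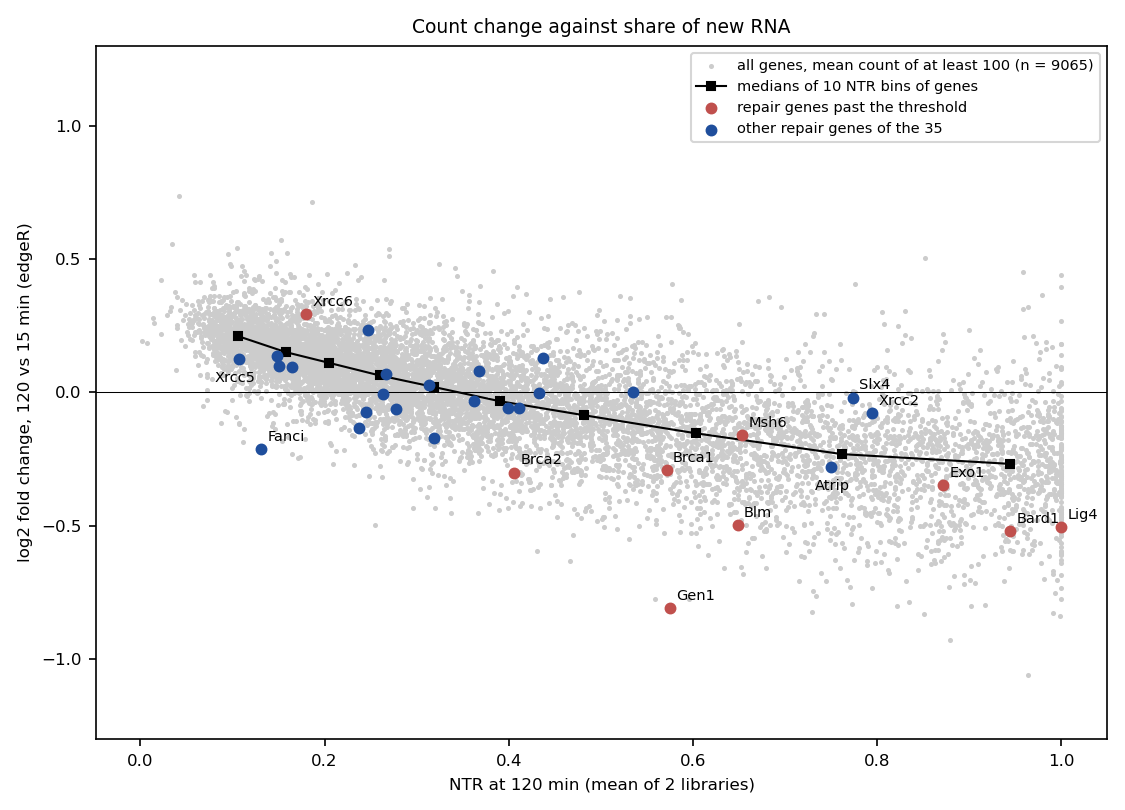
Log2 fold change of 120 against 15 min (y axis) against the mean NTR at 120 min (x axis) for the members (red past an edgeR adjusted p of 0.05, blue otherwise) and for the 9065 genes of at least 100 reads on average (light grey, 2 of them outside the drawn range), with black squares at the medians of 10 NTR bins. The members follow the slope of the bin medians from 0.21 to -0.27, with Gen1 (-0.81) far below it and Slx4 (-0.02) above it.

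Other DNA repair genes, from a list of 107 symbols of which 105 were found and 104 tested, give the pathway around the members. Against no4sU at 120 min, 13 of the 104 fell and 3 rose (15.4%, background 14.2%), with a median log2 fold change of -0.08. Against 15 min, 10 fell and 3 rose (12.5%, background 19.3%), with a median of -0.06. These counts were 31 and 12 against no4sU without no4sU replicate A and B (30.2% and 16.2% of all genes), and 3 and 5 without 120 min replicate A and B (3.87% and 3.99%). Against 15 min they were 32 without no4sU replicate A or B (31.6% and 31.7% of all genes) and 32 with only these 2 groups fitted (33.6%). Without 15 min replicate A or B, or 120 min replicate A or B, they were 5, 6, 7 and 4 (5.62%, 8.86%, 8.7% and 6.03%). Scaling by library size alone gave 19 lower and 0 higher against no4sU (14.6% and 1.76% of all genes), and 22 lower and 1 higher against 15 min (16.1% and 3.68%), so the balance of falls and rises moved with the scaling.

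The 8 genes with the largest change among those that passed in both contrasts at 120 min all fell. Against 15 min by edgeR, Top3a, the topoisomerase that works with Blm, was at -0.55 ± 0.09 (SE, adjusted p = 0.000641), Rad17, which loads the checkpoint clamp, at -0.49 ± 0.13 (adjusted p = 0.0119), and Dna2, a resection nuclease, at -0.46 ± 0.11 (adjusted p = 0.00603). The translesion polymerase genes Polh and Rev1 were at -0.45 ± 0.11 and -0.42 ± 0.08. Clspn, the adaptor of Chek1, was at -0.41 ± 0.08, the helicase gene Brip1, a Brca1 partner, at -0.32 ± 0.10, and the clamp subunit gene Hus1 at -0.31 ± 0.10. Top3a was at 36.1 and 35.1 CPM at 15 min and 23.0 and 25.5 CPM at 120 min, with NTR values at 120 min of 0.9391 and 0.9409. The NTR of these 8 genes at 120 min was between 0.4778 (Brip1 in A) and 0.9419 (Rev1 in B). The pair that rose in both contrasts, Ercc1 and Ddb1 of nucleotide excision repair, chosen for mention after their values were seen, had NTR values of 0.1321 to 0.1418 and log2 fold changes against 15 min of 0.23 ± 0.06 and 0.17 ± 0.05. The median NTR of the list at 120 min was 46.7% ± 1.68 (SD, n = 2) over the 84 of them with at least 100 reads on average, above the members' 37.7% ± 2.03 in both libraries.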

How the data were processed

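Libraries were from NIH-3T3 cells treated by SLAM-seq, per the labels' protocols. The submitters' processing notes name cutadapt, Bowtie2 2.3.0 and STAR 2.7.10b. Build, annotation, counting tool and use of strand were not given in the sources used here. Estimated counts per gene were deposited by the authors (20.4% of the values not whole, tolerance 1e-06, rounded here before testing, 0 entries without a gene). They deposited the NTR as a fraction per labelled library, of which the posterior maximum and the 0.05 and 0.95 quantiles were used. The columns headed alpha and beta, deposited beside the NTR and recorded here as a score, were not used. How many reads failed to align because of conversions cannot be read from these files, and such loss would act on counts as well as on the NTR.

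Differences in counts were fitted by edgeR 4.0.16 (R 4.3.3) on 11564 genes kept by filterByExpr over the groups, with TMM factors of 0.970 to 1.02, in a single quasi-likelihood fit of all 12 libraries without covariates (common biological coefficient of variation 4.44%). The slope used the 10 labelled libraries and 11526 genes. P-values were adjusted by Benjamini-Hochberg over all genes tested, with a threshold of 0.05, and the SE is the log2 fold change over the square root of F. CPM used TMM library sizes, RPKM is CPM per kilobase of the deposited gene length, and the fold changes per library behind the rho used CPM plus a pseudocount of 1. Exact permutation of 2 against 2 libraries cannot go below p = 0.333 and was not used. The fitting procedure was tested on simulated data. Gene positions come from GENCODE M21 and promoters from RefSeq, both on GRCm38, matched by gene ID and symbol.

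Values in every library are given for members past the threshold in either contrast at 120 min and at least 100 reads on average, and for the 4 lowest and 4 highest NTR at 120 min. Of the other repair genes, at most the 8 with the largest change among those past the threshold in both contrasts are named. The members and lists were chosen with earlier results of these data known. Alternatives were DESeq2 1.42.0, RLE factors, library size alone, no low-count filter, only the groups compared, the replicate letter as a block, each library left out, and other NTR estimates, count minimums, pseudocounts and references. Figures used Python 3.11.15 and matplotlib 3.10.9.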

Additional observations from a re-analysis of the deposited data

How the results depend on the processing

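At 90 min, where 1 member passed, DESeq2 gave 0 (of 13 members with an adjusted p), library size alone 3, no low-count filter 2, only the 2 groups compared 0, and leaving out single libraries 0 to 8. Members passed at 15, 30 and 60 min in no setting except without no4sU replicate B, as given above with the shares of all genes. At 120 min against no4sU (6 members), DESeq2 gave 4 (12.5% of all genes) and only the 2 groups compared 3. Library size alone gave 8, all lower (14.6% of all genes lower). For 120 against 15 min (9 members), DESeq2 gave 4, no low-count filter 8 (14% of all genes) and only the 2 groups compared 11. Library size alone gave 10, all lower (16.1% of all genes lower), so falls among the members also moved with the scaling. For these contrasts, fits without a library of the compared groups are given above. The other repair genes against no4sU (16) were 1 with only the 2 groups compared and 3 to 31 with libraries left out, and against 15 min (13) they were 23 with library size alone, 32 with only the 2 groups compared and 4 to 32 with libraries left out. The slope over labelled libraries (12 members) stayed at 9 to 12, and the share of all genes called ranged from 25.6% to 38.6%. The median NTR of 0.377 was 0.314 over members of at least 1000 reads on average and 0.363 to 0.392 with either library alone. The median half-life of 185 min was 176 min over members with any count, 221 min at a mean count of at least 1000, and 182 to 187 min by library. The rho of -0.603 was -0.526 with no4sU as reference and -0.617 to -0.547 with libraries left out, the last without 15 min replicate A. Where these values moved, the cause was not tested. Leaving out a library or fitting only 2 groups leaves fewer samples. With only the 2 groups compared, the share of all genes called was lower at 120 min against no4sU (1.5%) and higher against 15 min (33.6%). A group left with 1 library is assumed to vary like the other groups. Over 27 calls of single members in the 2 contrasts at 120 min and by slope, 374 of 450 alternatives kept the call, 76 lost it and 0 reversed its sign. The call of Gen1 at 90 min is not in this count. Alternatives that left out a library outside the compared groups are included.

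The replicate letters carry no stated pairing. Deviations of same-lettered libraries correlated between -0.129 and 0.15 over 15 pairs of groups, with 3 above 0.1 and 1 below -0.1. Such low values cannot exclude a weak pairing, and the main fit used none. The fit with the replicate block gave 0, 0, 0, 1 and 6 members against no4sU from 15 to 120 min (0%, 0%, 0.0346%, 1.58% and 15% of all genes). It gave 9 against 15 min (20%) and 12 by slope (38.6%), the same counts of members as without it. In the contrasts at 120 min it gave 16 and 14 other repair genes.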
